A study of Mus musculus with 6 samples.

Results

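The accessibility of chromatin at 5 genes of the nuclear lamina and the inner nuclear membrane, Lmna, Lmnb1, Lmnb2, Lbr and Tmpo, was examined in primary mouse embryonic fibroblasts (pMEFs) with and without the histone acetyltransferase HAT1. A site was counted to a gene when its midpoint lay in a fixed window around that gene, and 73 of the 229903 tested sites did so. Lmna had 17 of them, Lmnb1 21, Lmnb2 9, Lbr 6 and Tmpo 20. Within the windows, sites were taken by position alone. The windows and genes were chosen with earlier results of these data known. The study used ATAC-Seq, in which a transposase cuts open chromatin and leaves sequencing adaptors, on 3 HAT1+/+ (HAT1 WT) and 3 HAT1-/- (HAT1 KO) lines. Each was grown directly from an embryo of the strain background given as C57bl6, in DMEM with serum, without treatment. The HAT1-/- cells lacked HAT1 from the start of development, so early and late effects of its loss cannot be told apart. The authors' table gives, for each site, the log2 of the mean normalized reads of the 3 lines of a genotype. All differences below are the HAT1-/- log2 level minus the HAT1+/+ log2 level, in the mean of 3 lines. Since only genotype means were used, no spread between lines, no interval and no test of a difference is given.

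Lamins are intermediate filament proteins that line the inner face of the nuclear envelope and form the nuclear lamina. Lmna encodes lamins A and C by alternative splicing, and Lmnb1 and Lmnb2 encode the B-type lamins, which keep a farnesyl anchor. Lbr encodes the lamin B receptor, an inner membrane protein that binds B-type lamins and heterochromatin protein 1 and also has sterol reductase activity. Tmpo encodes the LAP2 proteins, which carry a LEM domain that binds the chromatin protein BAF, and of which most isoforms sit in the inner membrane. Together these proteins hold silent chromatin at the nuclear edge, in lamina-associated domains. The question for these genes is whether the chromatin at the genes of the lamina itself differed between the genotypes.

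A RefSeq promoter of 4 of the genes is shown first, because strong sites described below lie over it. For Tmpo it is the promoter of the protein-coding transcripts, and that of Lmnb1 is not shown. The sequences come from RefSeq for GRCm38.p6 and end just before the RefSeq transcription start, or before the nearest annotated exon base in Lmna. They are given 5′ to 3′ on the minus strand, on which all 4 genes lie. Capitals mark matches on either strand to 6 motifs, which are GGGCGG for the GC box, CCAAT for the CCAAT box, TTTGAA for the CHR element, TGANTCA for the AP-1 site, CACGTG for the E-box and CCGGAAG for the ETS site.
Lmna, chr3:88503387-88503602: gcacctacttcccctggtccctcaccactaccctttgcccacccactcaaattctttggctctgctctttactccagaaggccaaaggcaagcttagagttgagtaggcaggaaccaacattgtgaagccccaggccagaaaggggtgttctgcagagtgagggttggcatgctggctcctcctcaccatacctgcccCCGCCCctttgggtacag
Lmnb2, chr10:80918246-80918495: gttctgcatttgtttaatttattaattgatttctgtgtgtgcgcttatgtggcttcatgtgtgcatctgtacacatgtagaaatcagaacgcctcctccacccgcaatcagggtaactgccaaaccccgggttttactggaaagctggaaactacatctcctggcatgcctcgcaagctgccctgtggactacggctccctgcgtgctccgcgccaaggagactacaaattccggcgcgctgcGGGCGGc
Lbr, chr1:181842402-181842651: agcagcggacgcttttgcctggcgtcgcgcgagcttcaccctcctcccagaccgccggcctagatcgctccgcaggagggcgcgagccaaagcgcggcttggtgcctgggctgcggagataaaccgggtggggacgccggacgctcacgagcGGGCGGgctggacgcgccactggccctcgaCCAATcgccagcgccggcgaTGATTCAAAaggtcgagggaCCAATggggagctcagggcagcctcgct
Tmpo, chr10:91171620-91171869: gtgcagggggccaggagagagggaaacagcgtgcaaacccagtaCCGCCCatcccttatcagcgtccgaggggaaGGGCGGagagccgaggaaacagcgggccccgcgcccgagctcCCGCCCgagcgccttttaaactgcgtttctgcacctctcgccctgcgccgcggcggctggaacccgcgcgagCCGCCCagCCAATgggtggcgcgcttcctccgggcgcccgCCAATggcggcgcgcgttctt

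The promoters of Lbr and Tmpo were rich in CpG, with 31 and 32 CpG dinucleotides in 250 bases and a GC content of 69.6% and 70.8%. That of Lmnb2 had 14 CpG and 52.8% GC, and that of Lmna had a single CpG (1) in 216 bases and 56.5% GC. Every base shown for Lmna, Lbr and Tmpo lies inside a tested site, as do 150 of the 250 bases for Lmnb2. The Tmpo sequence held 4 GC boxes and 2 CCAAT boxes. The Lbr sequence held 1 GC box, 2 CCAAT boxes, and an AP-1 site that overlaps a CHR element. Lmna and Lmnb2 each held 1 GC box. Of 32851 RefSeq promoters of 250 bases, 32.7% have a GC box, 33.8% a CCAAT box, 5252 promoters a CHR element and 6.75% an AP-1 site. None of the 4 sequences had an E-box or ETS match, which 6.02% and 6.91% of the promoters have. Further RefSeq promoters of these genes are not printed. Among them, that of Lmna at chr3:88493313-88493562 held 1 ETS site and 1 CCAAT box, that of Tmpo at chr10:91170551-91170800 held 1 CHR element, and that of Lmnb2 at chr10:80906413-80906662 held no match. These matches describe the letters only.

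The sites outside Lmnb1 whose levels differed by at least 1 on the log2 scale are shown next, on the plus strand and with the same capitals. The pair at Lbr lies upstream of the gene and the pair at Lmnb2 inside it.
Lbr, chr1:181845930-181846109, higher by 1.01: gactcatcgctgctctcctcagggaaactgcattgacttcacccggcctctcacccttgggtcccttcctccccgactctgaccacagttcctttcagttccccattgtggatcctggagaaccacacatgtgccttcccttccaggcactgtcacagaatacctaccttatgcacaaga
Lbr, chr1:181848044-181848168, difference -1.21: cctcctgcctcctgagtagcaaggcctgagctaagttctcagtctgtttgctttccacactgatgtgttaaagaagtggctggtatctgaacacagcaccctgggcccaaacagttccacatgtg
Lmnb2, chr10:80912583-80912670, higher by 1.04: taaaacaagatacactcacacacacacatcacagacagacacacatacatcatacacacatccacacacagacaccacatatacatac
Lmnb2, chr10:80917496-80917597, difference -1.15: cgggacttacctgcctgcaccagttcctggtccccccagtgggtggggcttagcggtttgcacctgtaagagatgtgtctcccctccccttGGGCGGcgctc

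The 88-base site in Lmnb2 is rich in CA repeats, and the 102-base site holds a GC box, a motif found in 5.13% of stretches of that length centred on tested sites. The other 3 sites matched none of the motifs. Each of the 4 sites had fewer reads than the main promoter site of its gene, with the values given further on.

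The labels of the cells were checked on promoters. All 9 fibroblast marker genes had a site within 1 kb of a transcription start, and the strongest site of each ran from 42.3 to 637 mean reads, with 7 at 64 reads or more. Of 11 marker genes of other cell types, 9 had such a site. Krt5 and Cd3e had none, and only Cdh5 (endothelium) and Tubb3 (neurons) reached 64 reads. Hat1 itself had 3 sites. The site at its start had 207 reads in HAT1+/+ and 239 in HAT1-/- cells, and an internal site at chr2:71421184-71421348 had 22.0 and 3.41. Whether any of them lies in the deleted part is not given in the sources used here. Over all 229903 sites the median difference was -0.06, and added over all sites a HAT1-/- line had 7479071 normalized reads against 7893424.

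**Figure D1:**
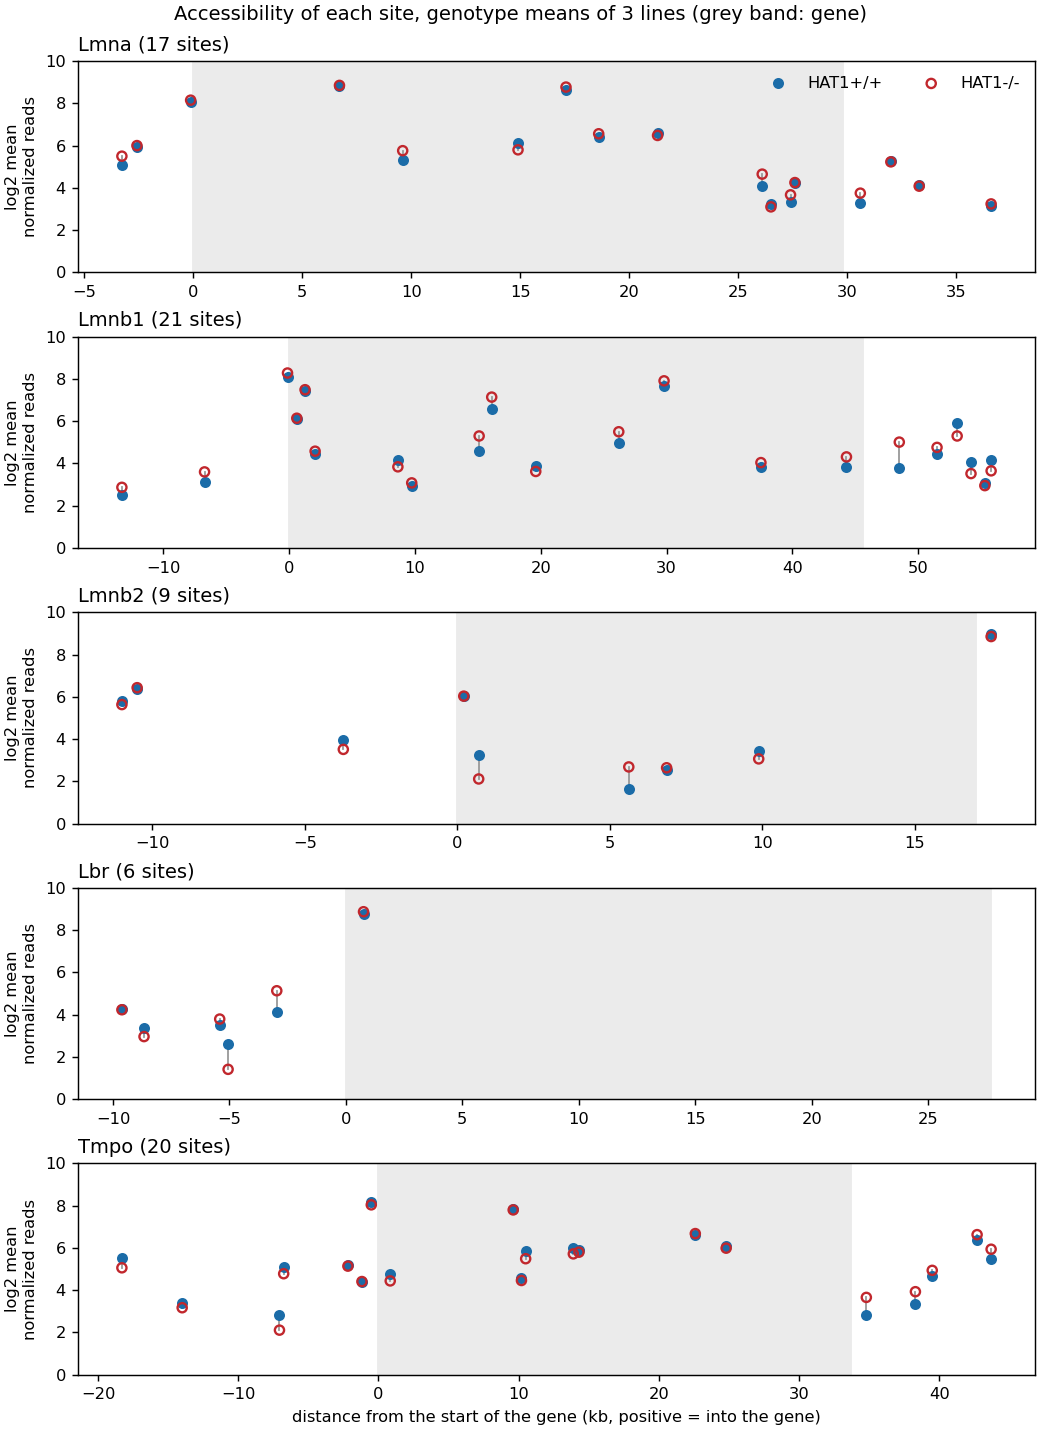
Log2 mean normalized reads of each of the 73 sites against its distance from the start of the gene, for HAT1+/+ (filled) and HAT1-/- (open), each the mean of 3 lines, with the gene as a grey band. The tall sites near the starts lie on top of each other in both genotypes, and visible gaps are at low sites such as those at 5.62 kb in Lmnb2 and upstream of Lbr.

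Levels at the 5 genes were close in the 2 genotypes. The median difference over the 73 sites was 0.04, against -0.06 over all tested sites, and 33 of the 73 (45.2%) were below 0, against 55.0% of all sites. Summed over the 73 sites, a HAT1-/- line had 5444 normalized reads and a HAT1+/+ line 5246. The middle 50% of the differences ran from -0.17 to 0.29, and their whole range from -1.21 to 1.22. These sites were a median of 268 bp wide with a median of 26.2 mean reads, against 255 bp and 14.2 reads over all sites, so they rest on somewhat more reads than the typical site.

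Few of the sites differed by a factor of 2 or more, which is 1 on the log2 scale. Of the 73, 2 were lower by at least 1, where 5.11% of all tested sites were, and 3 were higher by at least 1, where 2.82% were. At a limit of 0.58, 4 were lower and 6 higher, beside 15.0% and 10.1% of all sites. With so few members, the counts at the limit of 1 are near the background and show nothing particular to these genes. At 0.58 the 4 lower sites are a smaller share of the 73 than the 15.0% of all sites. Such shares vary with the reads of a site, since 1017 of the 23775 sites of at least 64 reads were lower by 0.58. Whether the 73 sites differ from the background at this limit was not tested. The sites just short of the limit of 1 were one downstream of Tmpo at 0.85, one in an intron of Lmnb1 at 0.73 and one upstream of Tmpo at -0.73.

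The sites past the limit all had fewer than 64 mean reads. Those at 1.22 beyond Lmnb1 and at 1.01 upstream of Lbr had 23.0 and 26.2, above the median of 14.2 over all sites. Sites were divided by their mean reads into 24 under 16, 30 from 16 to under 64, and 19 of at least 64. A difference of at least 1 either way was found at 3 of the 24, at 2 of the 30 and at 0 of the 19. Among all tested sites the shares in these classes were 11.7%, 4.00% and 0.900%. The central 95% of all sites of at least 64 reads ran from -0.70 to 0.42, and 18 of the 19 strong sites at these genes were inside it. The exception was an intronic site of Lmnb1 at 0.55. In the class from 16 to under 64 reads the central 95% ran from -1.12 to 0.72, and 3 of the 30 sites lay above it and 0 below. Those were Lmnb1 sites at 0.73 and 1.22 and the Lbr site at 1.01. In the lowest class none of the 24 lay outside the range of -1.41 to 1.22.

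**Figure D2:**
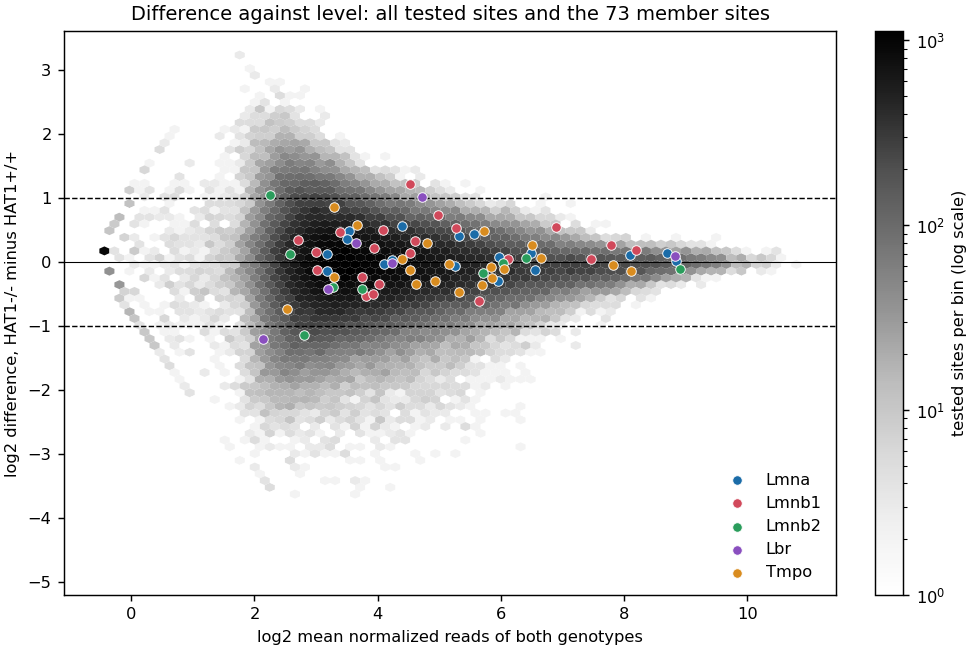
Log2 difference (HAT1-/- minus HAT1+/+) against the log2 of the mean normalized reads of both genotypes, with all 229903 tested sites as grey bins on a log colour scale and the 73 sites coloured by gene. The spread of all sites narrows as the level rises, and the 19 coloured sites of at least 64 reads (6 on this axis) lie between -0.14 and 0.55.

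Promoters were open in both genotypes. A promoter site here overlaps 1 kb on either side of an annotated start of the gene, starts of non-coding transcripts included, and 19 of the 73 sites met this. Their median difference was 0.01, against -0.08 for all 40696 promoter sites of the series, and 9 of the 19 were below 0. The 10 with at least 64 reads ran from -0.14 to 0.19, with a median of 0.04. All 13034 promoter sites of that level had a median of -0.07 and a central 95% from -0.55 to 0.28, and each of the 10 was inside it. The other 9 ran from -1.15 to 0.56. A promoter site that was lower by at least 1 was found in Lmnb2 alone (1 of 19, beside 2.62% of all promoter sites), and none was higher by at least 1 (beside 1.44%).

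Lmna, whose A-type lamins give differentiated nuclei their stiffness, had 3 strong promoter sites. The site at chr3:88502673-88503820 covers the starts of Lmna-201, Lmna-203 and Lmna-204 and had 458 mean reads in HAT1+/+ and 461 in HAT1-/- cells, a difference of 0.01. It ranked above 97.2% of promoter sites in level. The site over the outermost start, that of Lmna-206 at chr3:88509696-88510451, had 265 and 284 reads, a difference of 0.10. The site over the internal start of Lmna-202, at chr3:88492392-88493386, had 396 and 437 reads, a difference of 0.14. All 3 therefore lay slightly higher in HAT1-/- cells, by less than 0.15.

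The Lmna window as a whole was more mixed. Of its 17 sites, which include the 3 strong promoter sites, 12 were above 0. The median of the 17 was 0.10, the range ran from -0.30 to 0.56, and none reached 0.58. The highest, at chr3:88483707-88483912 within 1 kb of the starts of the retained-intron transcripts Lmna-205 and Lmna-207, had 17.0 and 25.1 reads. The other 3 sites near those starts had 9.04 to 18.9 mean reads and differences of 0.02, 0.36 and -0.15. The lowest, in an intron at chr3:88494932-88495160, had 68.6 and 55.7. The 3 upstream sites were all above 0, from 0.08 to 0.40, and 2 of the 4 downstream sites were. Summed over the window, HAT1+/+ cells had 1636 reads and HAT1-/- cells 1728.

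Lmnb1, whose product is a B-type lamin used to map lamina contacts, had its strongest site over the start of Lmnb1-201, at chr18:56707311-56708048. It had 272 mean reads in HAT1+/+ and 311 in HAT1-/- cells, a difference of 0.19 and the highest among the 10 strong promoter sites. The neighbouring sites at chr18:56708220-56708614 and chr18:56708747-56709391 had 68.6 and 70.5 reads, and 175 and 180, both with a difference of 0.04. The start of the second annotated transcript had a weak site at chr18:56727321-56727554 with 14.5 and 12.3 reads (-0.24).

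Inside Lmnb1 the levels in HAT1-/- cells were mostly the higher ones. Of the 12 sites inside the gene 10 were above 0, with a median of 0.18, and the summed reads were 686.3 and 811.8. An intronic pair 15.1 kb and 16.1 kb from the start stood out in size. The site at chr18:56722673-56723129 had 23.8 and 39.4 reads (0.73) and that at chr18:56723487-56724295 had 96.3 and 141 (0.55). A further strong intronic site, at chr18:56737281-56737868, had 201 and 241 reads (0.26). The lowest inside the gene was at chr18:56716271-56716627, with 18.1 and 14.3 reads (-0.34).

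Beyond the 3′ end of Lmnb1 the direction was mixed. The highest difference of all 73 sites was at chr18:56756161-56756392, between Lmnb1 and March3, with 13.8 reads in HAT1+/+ and 32.2 in HAT1-/- cells (1.22). Farther on, the site at chr18:56760574-56761302 had 60.5 and 39.4 reads (-0.62), the lowest of this window. The 3 sites inside March3, which encodes a membrane ubiquitin ligase and is transcribed towards Lmnb1, were all below 0, from -0.53 to -0.13. Over the whole window 15 of 21 sites were above 0 and the median was 0.19, the highest of the 5 genes.

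Lmnb2, the second B-type lamin gene, had a far weaker promoter than its relatives. Its site at chr10:80917676-80918395 had 66.3 and 65.3 reads, a difference of -0.02. Per kb of site width this is 92.0 and 90.8 reads, where the strongest sites of the other genes have 287 or more in HAT1+/+ cells. A tested site of 102 bp beside it, at chr10:80917496-80917597, had 9.58 and 4.32 reads (-1.15), the only promoter site past the limit of 1. No tested site overlapped the 250 bases before the internal RefSeq start of Lmnb2, at chr10:80906413-80906662.

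The strongest site in the Lmnb2 window belongs to its neighbour. At chr10:80900238-80901176, within 1 kb of the starts of Timm13, which encodes a chaperone of mitochondrial import, levels were 501 and 461 reads (-0.12). The sites near Gadd45b, a stress-response gene upstream, had differences of 0.06 and -0.17 at 82.7 and 55.7 reads in HAT1+/+ cells. An 88 bp site in an intron, at chr10:80912583-80912670, had 3.12 and 6.41 reads (1.04), so its size rests on a few normalized reads. Over the 9 sites 6 were below 0 and the median was -0.12, the lowest of the 5 windows. That median is the value of the Timm13 site, and the 5 sites inside Lmnb2 had a median of -0.02. With 3 kb gene margins in place of the windows, Lmnb2 had -0.07 and Tmpo was lowest at -0.10.

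Lbr had the highest level per kb among the strongest promoter sites of the 5 genes, and no other strong site. The site at chr1:181841813-181842770, within 1 kb of the starts of Lbr-201, Lbr-202, Lbr-204, Lbr-205 and Lbr-208, had 440 and 468 reads, a difference of 0.09. It is the only tested site within the 27.7 kb of the gene. The 5 upstream sites were weak beside the promoter site, with 4.40 to 26.2 mean reads. They included the site at chr1:181845930-181846109, with 17.4 and 35.0 reads (1.01), and farther out that at chr1:181848044-181848168, with 6.15 and 2.66 (-1.21). These neighbouring sites differed in opposite directions, and the median of the window was 0.03. The outermost pair lies at Gm5533, a lincRNA gene, with differences of -0.43 and -0.02.

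Tmpo, the LAP2 gene, had 2 strong promoter sites. That over the starts of the protein-coding transcripts, at chr10:91171307-91172104, had 231 and 223 reads (-0.05). That next to the outermost starts, of the non-coding Tmpo-207 and Tmpo-211, at chr10:91181322-91182332, had 290 and 263 (-0.14), the lowest among the 10 strong promoter sites. The sites next to the former, at chr10:91170658-91170930 and chr10:91171039-91171254, had 58.1 and 44.9 reads (-0.37) and 24.1 and 22.0 (-0.13). A weaker site beside the latter, at chr10:91180351-91180599, had 27.5 and 21.7 (-0.34).

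Within the Tmpo window the direction differed by position. The 5 sites downstream of the gene were all above 0, from 0.26 to 0.85, with 169.0 summed reads in HAT1+/+ and 219.0 in HAT1-/- cells. Of the 8 sites inside the gene 7 were below 0, with a lowest value of -0.37, and of the 7 upstream sites 6 were, down to -0.73. The highest value belongs to the site at chr10:91146360-91146635, with 7.01 and 12.6 reads, and the lowest to a 98 bp site at chr10:91188327-91188424, with 7.16 and 4.32. Neighbouring sites are not independent, so a run of sites with the same sign was not tested. Over the window 13 of 20 sites were below 0, and the median was -0.10.

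Set in order of HAT1+/+ reads per kb of site width, the strongest promoter site of each gene was that of Lbr (459), Lmna (399), Lmnb1 (369), Tmpo (287) and Lmnb2 (92.0). In HAT1-/- cells the values were 488, 402, 421, 260 and 90.8, so the order of Lmna and Lmnb1 was the other way round. The site taken for each gene was the one with the most reads, and another choice alters the order, since the Lmna-202 site had 398 and 439 reads per kb and the site at the protein-coding starts of Tmpo 289 and 279. Without the spread between lines it cannot be said which neighbours in this order differ. By base composition, the 19 promoter sites had a median GC content of 64.4% and a median observed to expected CpG ratio of 0.692. The other 54 sites had 51.9% and 0.227. Of those 54, 3 are promoters of other genes. In all, the 73 sites comprise 27 intergenic and 21 intronic sites, 2 in exons and 1 in a UTR beside the 22 promoter sites.

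The neighbourhood of the genes was compared with domains rebuilt here with the window and cutoff of the study's methods, in which the mean log2 difference of 25 consecutive sites is below -0.58. No member site lay in such a stretch. The mean of 25 sites ran from 0.05 to 0.23 at Lmna, from 0.07 to 0.18 at Lmnb1, from -0.10 to 0.01 at Lmnb2, from -0.16 to -0.07 at Lbr and from -0.26 to 0.09 at Tmpo. From the 5th to the 95th percentile of all sites this mean ran from -0.36 to 0.17, with a median of -0.05. The medians at Lmna and Lmnb1 stood above 90.1% and 90.7% of all sites, that at Lbr above 29.8%. Each such mean takes in member sites themselves, of which Lmna has 17 and Lmnb1 21. It is therefore not a measure of the surroundings apart from the differences given above.

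Joining stretches over gaps of up to 1 Mb gave 165 domains, and their number differs from that of the study's own list, which was not used here. The nearest of these rebuilt domains was 4.09 Mb away at Lmna, 6.07 Mb at Lmnb2, 6.34 Mb at Lbr, 9.67 Mb at Tmpo and 13.9 Mb at Lmnb1. Within 1 Mb on either side of each window the 25-site mean reached its lowest at -0.43, beside Lmna. The sites in those flanks had a median difference of -0.12 at Lmna, -0.02 at Lmnb1, -0.06 at Lmnb2, -0.02 at Lbr and -0.06 at Tmpo. Window medians lay above those of the flanks at Lmna (0.10), Lmnb1 (0.19) and Lbr (0.03), and below them at Lmnb2 (-0.12) and Tmpo (-0.10). Without the spread between lines, the weight of these small gaps cannot be judged. The GC content of the 200 kb around the genes was 52.8% at Lmnb2, 49.7% at Lmna, 45.0% at Lmnb1 and Lbr and 43.4% at Tmpo.

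**Figure D3:**
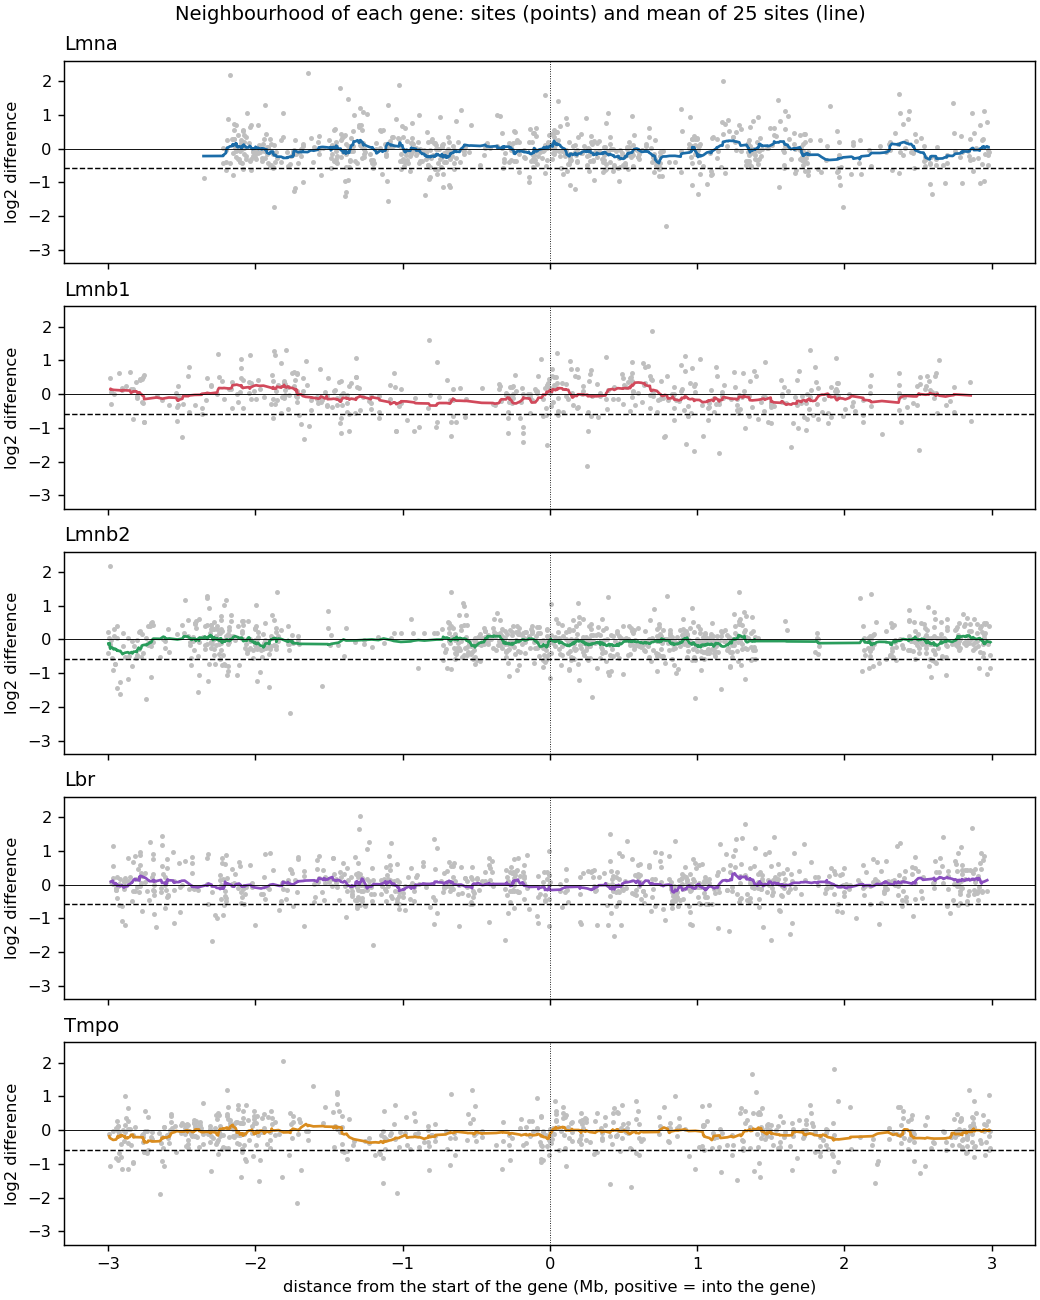
Log2 difference of every tested site within 3 Mb of the start of each gene (points) and the mean of 25 consecutive sites (line), against distance in Mb. The dashed line is the domain cutoff of -0.58, and no line reaches it.

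Other genes of the nuclear envelope were taken from lists covering lamin processing, the LEM-domain proteins and their associates, the LINC complex that ties lamina to cytoskeleton, pore proteins, and chromatin partners of LBR and LAP2. All 31 genes had a promoter site of at least 64 reads. Of their 72 promoter sites 46 were below 0, with a median difference of -0.10, beside 60.2% below 0 and a median of -0.08 over all promoter sites. None of the 72 was lower or higher by at least 1, beside 2.62% and 1.44% of all promoter sites. The 72 had a median of 105 mean reads, against 27.2 for all promoter sites. Of the 13034 promoter sites of at least 64 reads, only 46 were lower and 3 higher by at least 1.

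By list, the median was 0.01 for 9 sites of the lamin processing enzymes, which farnesylate, trim and methylate the lamin tail. It was -0.10 for 20 sites of the LEM-domain list and -0.10 for 11 sites of the chromatin partners. The LINC complex had -0.14 over 22 sites and the pore list -0.16 over 10. The lowest difference of all lists was -0.96, at a site of Sun2, a LINC protein of the inner membrane, at chr15:79735360-79735841, with 18.5 reads in HAT1-/- cells and log2 levels of 5.17 in HAT1+/+ and 4.21 in HAT1-/- cells. The main promoter site of Sun2, at chr15:79741811-79742844, had 193 and 197 reads (0.03). The highest was 0.49 at Lemd2, an inner membrane protein with a LEM domain, at chr17:27200763-27201159, with 25.3 and 35.5 reads.

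**Figure D4:**
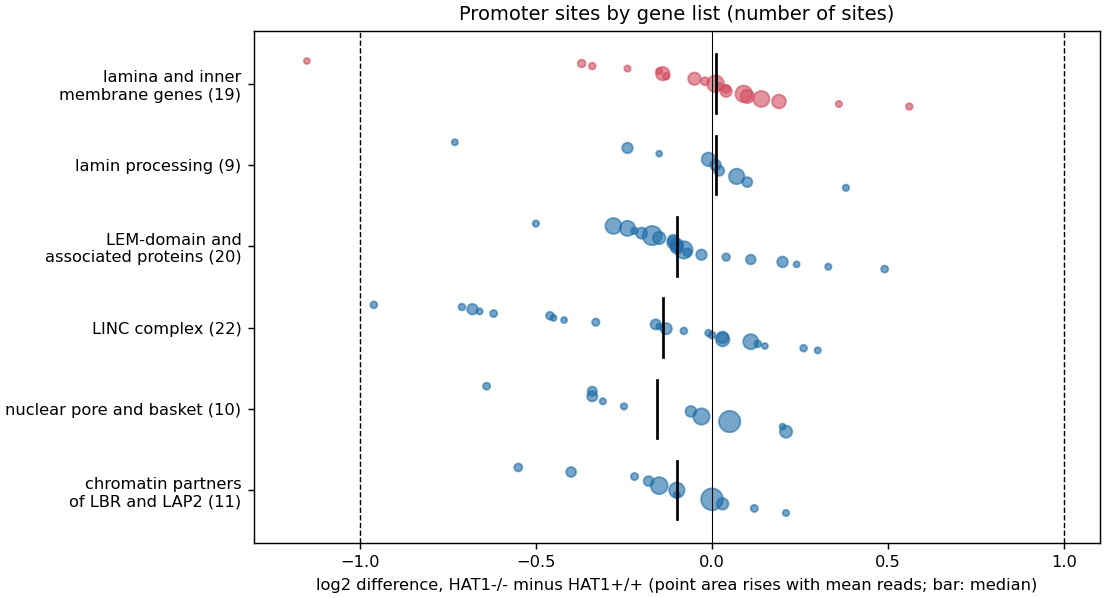
Log2 difference (HAT1-/- minus HAT1+/+) of each promoter site, by gene list, with the number of sites in parentheses. Point area rises with mean reads, bars are medians and dashed lines mark -1 and 1, and the only site past the lines is the 102 bp site of Lmnb2 at -1.15.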

How the data were processed

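ATAC-Seq was performed on 3 HAT1+/+ and 3 HAT1-/- pMEF lines, all run in the same flow cell lane per the labels. Per the labels and the study's methods, Bowtie2 alignment to mm10 followed the ENCODE pipeline, peaks were from MACS2, and site levels were from DiffBind 2.14.0. The consensus rule and the normalization setting are not given in the sources used here. The levels the authors deposited are log2 values of the mean normalized reads of a genotype. Columns with the authors' fold change, p-value and FDR were not used, nor was a mean over both genotypes. Depth per line is unknown, and the reads at a site limit its precision.

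Genotype levels were subtracted site by site in Python 3.11.15 with pandas 2.3.3 and numpy 2.4.6. Interval bounds used for comparing settings came from scipy 1.17.1, and plots from matplotlib 3.10.9. The reference was GRCm38, the assembly of mm10, and all sites lay within its chromosome lengths. Features came from GENCODE vM21, with promoters within 1 kb of a start. Domains were rebuilt as stretches with a 25-site mean below -0.58, joined over gaps of up to 1 Mb, without the Y chromosome. Windows, members and gene lists were chosen with earlier results of these data known, and the level classes after the values were seen. Named were the promoter sites of the 5 genes, the lowest and highest site of each window, the lowest and highest promoter site of the other lists, and Hat1. Other sites named in the text were chosen after their values were seen. The calculations were tested on simulated data with known shifts.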

Additional observations from a re-analysis of the deposited data

How the results depend on the processing

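Another window, level filter or scaling left the median between 0.04 and 0.12 and the share below 0 between 37.0% and 45.2%. In place of the 73 sites, the set held 48 with 3 kb gene margins, 88 with 20 kb margins and 49 with at least 16 reads. The medians of the 5 genes kept their sign when reads were summed, genes with 3 kb margins replaced the windows, or the autosomal median of -0.06 was subtracted. That of Lbr moved from 0.03 to 0.55 with the 3 kb margins, which leave its promoter and the site at 1.01. The counts depended on the limit. Sites lower by at least 1 numbered 2, against 4 at a limit of 0.58, 0 with at least 16 reads and 0 with at least 64. Higher sites numbered 3, against 6 at 0.58, 2 with at least 16 reads and 0 with at least 64. At Lmna the neighbourhood mean of 0.12 became -0.10 over all sites within 1 Mb, and at Lmnb1 0.13 became 0.03 over 51 sites and -0.04 within 1 Mb. The mean of 25 sites takes in sites of the window itself. The 1 Mb span adds 347 sites outside the window at Lmna and 178 at Lmnb1, with medians of -0.12 and -0.02. Why windows and flanks differ was not tested. All 20 neighbourhood values computed stayed above -0.58. Promoters within 3 kb gave medians of 0.02 for the 5 genes and -0.10 for the other lists, and protein-coding starts alone gave 0.02. No paired analysis was possible because only genotype means were used, and for the same reason no line was left out in turn. Sites under 16 reads limit what can be said of Lmnb2 and of the region upstream of Lbr.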
